A study of Mus musculus with 9 samples.

Results

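The Rab GTPases were examined across undifferentiated, differentiating and MIZ-treated primary mouse fat cell cultures. A gene was counted as a Rab GTPase where its symbol was Rab followed by a number and an optional letter, and regulators or binding proteins with a Rab-number symbol, such as Rab11fip1 and Rab3gap1, were left out. This gave 59 genes among 32285 gene identifiers, of which 56 had enough counts to be tested. The cultures were primary stromal vascular fraction (SVF) cells from the subcutaneous white adipose tissue of wild-type neonatal mice, in which preadipocytes lie mixed with other stromal cells. Cells from individual animals were plated separately, and bulk RNAseq compared 3 groups of 3 replicates. One group was left undifferentiated, another was driven toward adipocytes over 6 days in the presence of vehicle, and the last underwent the same 6 days with 25 µM mizoribine (MIZ), which inhibits both inosine monophosphate dehydrogenases, the enzymes that open the guanine branch of purine synthesis. The differentiation medium shared by the vehicle and MIZ groups carried insulin, dexamethasone, IBMX and PPARγ agonists, to which the undifferentiated cells were not exposed.

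Rab proteins are small GTPases that mark the membranes of the cell and direct vesicle budding, movement, tethering and fusion. Each switches between a GDP-bound form, held in the cytosol by GDI, and a GTP-bound form that binds effectors on a membrane. Guanine nucleotide exchange factors (GEFs) load GTP, GTPase-activating proteins (GAPs) trigger its hydrolysis, and a geranylgeranyl anchor attached with the help of Rab escort proteins holds the Rab in the bilayer. In adipocytes the family is best known for Rab10, which carries the glucose transporter GLUT4 to the surface after insulin, and for Rab18 on lipid droplets.

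Total counts ran from 28760721 to 55288455 per library, and levels are given in CPM, which are counts divided by the library total after TMM scaling and put on a common scale. The 8 adipocyte markers summed to 78.2 to 79.9 CPM in undifferentiated, 14420 to 15211 in vehicle and 1012 to 1262 in MIZ libraries, although the hormone gene Lep stayed under 1 CPM throughout. Macrophage markers, 6 genes, summed to 4823 to 4946, 436 to 785 and 868 to 1197 CPM in the same order, highest in undifferentiated cells. Between MIZ and vehicle 2 of these 6 genes rose (Adgre1 and Lyz2) and 1 fell (Mrc1). By group mean Lyz2 ran in the order of the sum, while Cd68, Csf1r, Mrc1 and Ptprc were lowest and Adgre1 highest with MIZ. Preadipocyte and fibroblast markers, 8 genes led by Col1a1, summed to 14677 to 15938 CPM in undifferentiated, 3347 to 4202 in vehicle and 6241 to 8062 in MIZ libraries. Pdgfra, Dlk1, Ly6a, Dpp4 and Col1a1 ran in the order of this sum by group mean. Pdgfrb and Thy1 were instead highest and Cd34 lowest with MIZ. Smooth muscle and pericyte markers, 6 genes led by Acta2, summed to 457 to 554, 46.1 to 68.4 and 3533 to 4901 CPM. Acta2, Myh11 and Cnn1 ran in the order of this sum by group mean, while Rgs5 and Kcnj8 were highest in undifferentiated and Des in vehicle cells. Vehicle replicate 1, the library with the fewest counts, stood farther from its group than any other library, and in these bulk samples fewer cells of a type and less RNA per cell cannot be told apart.

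Ranked by CPM per kilobase of exon, the most abundant Rab mRNA in every group was Rab7, the Rab of late endosomes and lysosomes, at 109.8, 94.6 and 109 CPM per kilobase in undifferentiated, vehicle and MIZ cells. By the highest of their 3 group levels, Rab5c of early endosomes followed at 81.5, 58.7 and 66.0, then Rab2a at 50.7, 50.2 and 65.5, Rab1b at 45.2, 60.3 and 53.6, and Rab10 at 37.5, 58.6 and 47.9. Rab1a came next, at 50.6, 45.5 and 47.9, above Rab1b and Rab10 in undifferentiated cells. Rab1a, Rab1b and Rab2a work in traffic between the endoplasmic reticulum (ER) and the Golgi. In vehicle cells Rab5c, Rab1b and Rab10 lay within a few CPM per kilobase of each other, and their order was not tested. The length used was that of the merged exons of all annotated transcripts. For Rab14 it was 13589 bases, against 3081 in the longest coding transcript, and for Rab1a 3799 against 2827. Places below Rab7 therefore depend on the length chosen. The whole family summed to 2997 ± 31.3 CPM (SD, n = 3) in undifferentiated cells, 2700 ± 36.3 in vehicle cells and 2892 ± 15.7 in MIZ cells. The vehicle sum was the lowest under TMM and also with median-ratio factors (2742 CPM, against 2947 for undifferentiated) and with library size alone (2510.1 against 3152). At the other end, 12 of the 59 members stayed under 1 CPM in every group.

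Comparing MIZ with vehicle asked which Rab genes differed when purine synthesis was inhibited during differentiation. In edgeR's quasi-likelihood test 37 of the 56 tested members passed a Benjamini-Hochberg adjusted p of 0.05, 22 higher and 15 lower with MIZ, beside 71.0% of all 17173 genes tested (35.9% higher and 35.1% lower). Over 2-fold changes were called for 11 members upward and 7 downward, beside 16.2% and 16.8% of all genes. The members' median log2 fold change was 0.08, beside 0.02 for all genes. With library size alone as the scaling the split became 32 higher and 12 lower, where the median of all genes also shifted upward by 0.14. Vehicle libraries lay wholly apart from MIZ libraries for 41 of the 56 members, beside 72.8% of all genes. The share of members called was near the background, and what follows concerns the individual members.

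**Figure D1:**
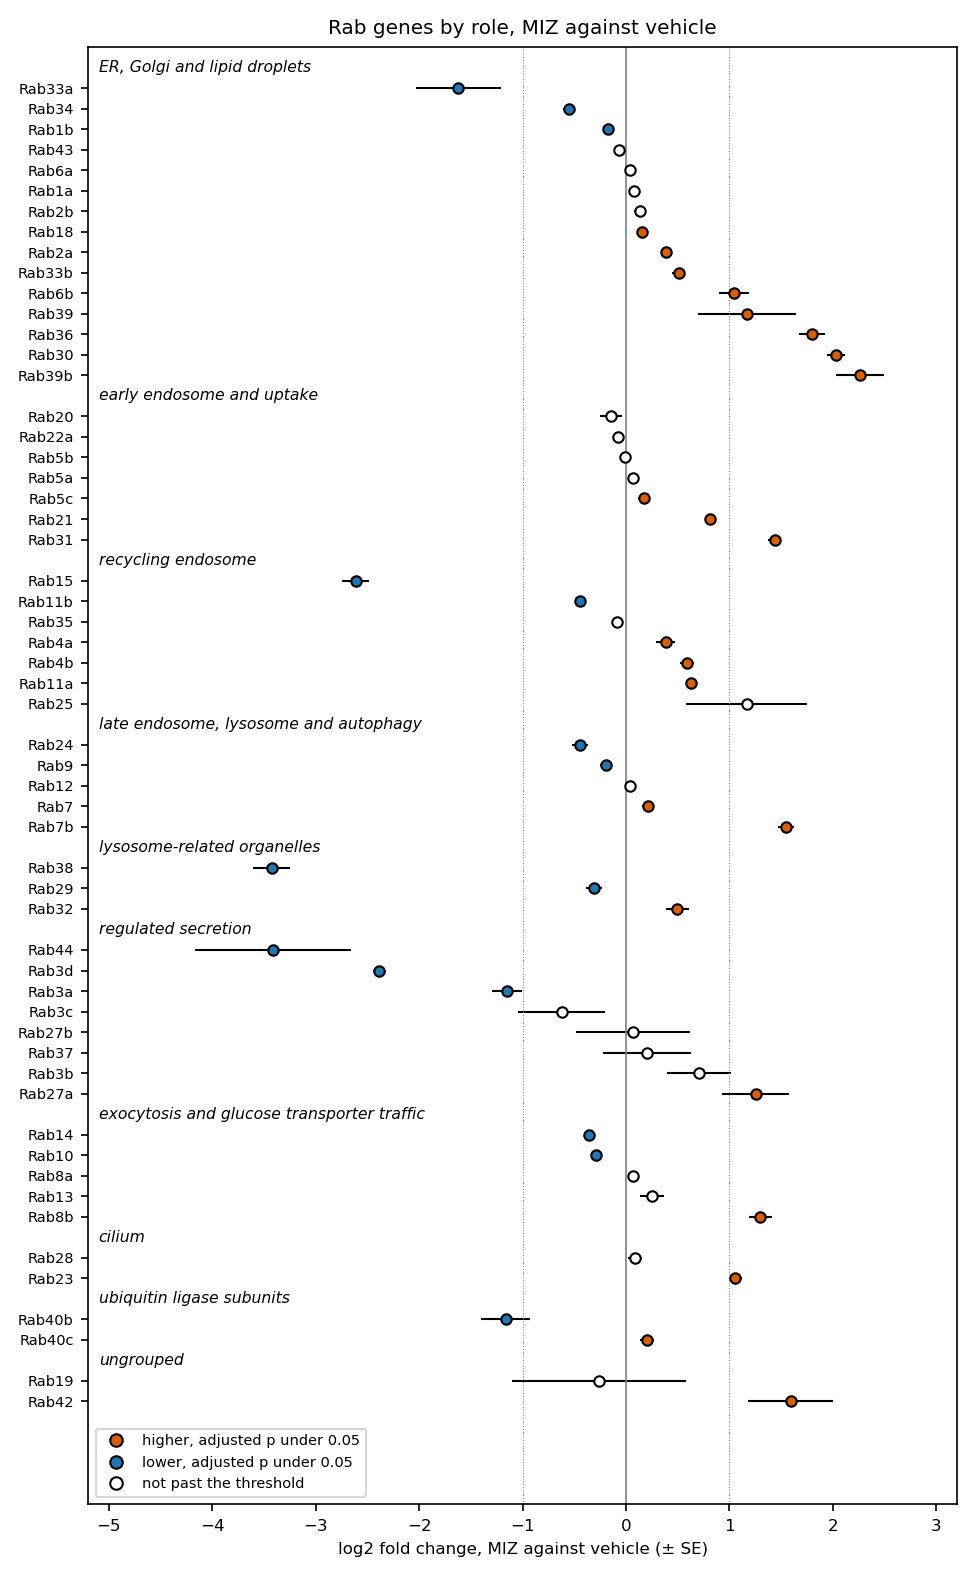
Log2 fold change of the 56 tested Rab genes between MIZ and vehicle cells, with the standard error as bars, ordered by the role of the protein. Filled points passed an adjusted p of 0.05 (orange higher, blue lower with MIZ), open points did not, and dotted lines mark a 2-fold change. Members ran from -3.43 (Rab38) to 2.26 (Rab39b), and most role groups held points on both sides of 0.

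Over 2-fold changes lay mostly among the less expressed members. Of the 28 tested members with the lower mean levels (0.164 to 28.2 CPM), 13 were called and over 2-fold changed between MIZ and vehicle, against 5 of the 28 with the higher levels (29.2 to 273 CPM). Over all genes tested, split in the same way at the median level, these shares were 40.5% and 25.7%.

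Before the single genes, the stretch just upstream of the start site is shown for 5 members on which the results turn: Rab39b and Rab31 (higher with MIZ), Rab3d and Rab40b (lower with MIZ), and Rab40c, the paralog of Rab40b that was called in the opposite direction. The sequences are RefSeq, build GRCm38.p6, 250 bases ending at the base before the start, 5′ to 3′ on the gene's strand, with matches to any of 6 searched motifs in capitals.
Rab39b (chrX:75578232-75578481, minus strand): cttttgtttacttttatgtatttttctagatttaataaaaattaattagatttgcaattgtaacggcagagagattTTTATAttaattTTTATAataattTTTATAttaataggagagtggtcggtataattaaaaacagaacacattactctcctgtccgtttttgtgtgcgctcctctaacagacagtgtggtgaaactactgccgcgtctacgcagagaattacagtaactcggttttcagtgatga
Rab31 (chr17:65772753-65773002, minus strand): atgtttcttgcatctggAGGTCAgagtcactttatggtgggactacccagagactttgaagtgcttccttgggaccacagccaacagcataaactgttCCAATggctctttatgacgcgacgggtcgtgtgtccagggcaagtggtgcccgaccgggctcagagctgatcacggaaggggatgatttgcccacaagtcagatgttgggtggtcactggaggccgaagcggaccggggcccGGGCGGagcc
Rab3d (chr9:21918184-21918433, minus strand): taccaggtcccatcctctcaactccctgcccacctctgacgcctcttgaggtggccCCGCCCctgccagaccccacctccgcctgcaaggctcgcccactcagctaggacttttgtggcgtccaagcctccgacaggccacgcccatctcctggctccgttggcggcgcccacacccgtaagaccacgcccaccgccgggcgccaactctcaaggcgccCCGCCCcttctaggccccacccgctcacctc
Rab40b (chr11:121388252-121388501, minus strand): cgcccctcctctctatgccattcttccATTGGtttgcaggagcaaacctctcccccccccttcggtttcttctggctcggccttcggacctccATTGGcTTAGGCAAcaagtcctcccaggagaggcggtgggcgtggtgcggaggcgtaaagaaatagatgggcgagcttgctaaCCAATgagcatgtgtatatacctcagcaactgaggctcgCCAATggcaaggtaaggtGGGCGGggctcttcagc
Rab40c (chr17:25919715-25919964, minus strand): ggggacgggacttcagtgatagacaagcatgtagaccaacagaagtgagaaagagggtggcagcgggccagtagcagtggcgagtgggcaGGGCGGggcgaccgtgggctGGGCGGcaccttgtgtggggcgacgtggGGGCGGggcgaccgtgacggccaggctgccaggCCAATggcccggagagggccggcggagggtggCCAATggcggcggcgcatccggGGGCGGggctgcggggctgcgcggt
The motifs, read on both strands and none contained in another, were the GC box GGGCGG, the CCAAT box CCAAT, the TATA box TATAAA, the E-box CACGTG, the nuclear receptor half-site AGGTCA and the C/EBP element TTGCNNAA. Rab39b differed from the other 4 in base composition, with 31.6% G and C against 57.6% in Rab31, 57.6% in Rab40b, 69.2% in Rab3d and 72.4% in Rab40c, and its only matches were 3 TATA boxes read on the other strand, the nearest beginning 150 bases before the start. Rab3d held 2 GC boxes and Rab40c 4. Rab40b was alone among the 5 in holding a C/EBP element, 151 bases before the start, and Rab31 alone in holding a nuclear receptor half-site, 233 bases before it. Across the 60 windows found for 48 Rab genes, 66.7% held a GC box, beside 32.7% of all 32851 windows in the table, 6.67% held a C/EBP element, beside 9.56%, and 5% held a half-site, beside 14%. The median G and C content was 60.2% in Rab windows and 52.4% in all windows. These matches describe letters only, and binding at these sites was not measured here.

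Among the 15 members of the ER, Golgi and lipid droplets, 8 rose and 3 fell with MIZ against vehicle, beside 35.9% and 35.1% of all genes. The rises were led by Rab39b, a Rab abundant in neurons whose loss causes intellectual disability (chrX:75572046-75578231, minus strand, GRCm38). It measured 3.73, 4.13 and 3.81 CPM in undifferentiated, 2.36, 1.57 and 1.00 in vehicle and 6.43, 7.60 and 8.75 in MIZ libraries. The MIZ libraries exceeded all 6 others, and the log2 fold change was 2.26 ± 0.232 (SE) against vehicle (adjusted p = 5.41e-06) and 0.96 ± 0.204 against undifferentiated cells (adjusted p = 0.00163). Its transcripts share 634 exonic bases with Gm15063 on the opposite strand, and that gene was at or under 0.129 CPM in every library. A list of 5 neuronal markers ran in the same order of groups, from 33.9 to 35.3 CPM in undifferentiated, 4.59 to 5.48 in vehicle and 83.1 to 103.6 in MIZ libraries, carried by Tubb3, with Rbfox3 at 0 and Syt1, Snap25 and Stmn2 under 1 CPM everywhere. The smooth muscle and pericyte sums given above, with 4 of 6 genes higher with MIZ than with vehicle, also had this order of groups. Singly, Acta2, Myh11 and Cnn1 of that list had it by group mean, while Rgs5, Des and Kcnj8 did not. Rab30, Rab21, Rab23 and Rab33b share the order, and the part of either marker list in any of these values was not tested.

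Rab30, a Golgi Rab, was at 35.5, 37.6 and 34.7 CPM in undifferentiated cells, dropped to 11.3, 10.6 and 9.39 with vehicle and stood at 38.0, 42.8 and 46.3 with MIZ. MIZ and undifferentiated libraries both lay above the vehicle libraries without overlap, with a log2 fold change of 2.03 ± 0.0881 for MIZ against vehicle (adjusted p = 4.24e-09). The rise of Rab30 over undifferentiated cells was small, 0.24 ± 0.0805, and lost its call when undifferentiated replicate 1 or 3 or MIZ replicate 2 or 3 was left out (adjusted p 0.0647 to 0.104). Rab36, which acts at the Golgi and on late endosomes, measured 7.02, 6.90 and 7.87 CPM in undifferentiated, 1.16, 1.22 and 1.22 in vehicle and 4.62, 3.86 and 4.11 in MIZ libraries. It was 3.48-fold higher with MIZ than with vehicle yet below undifferentiated cells (log2 fold change -0.79, adjusted p = 5.36e-05), with no overlap between any groups.

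Rab6b, the brain-enriched partner of the Golgi Rab Rab6a, was at 9.84, 7.55 and 7.51 CPM without differentiation, 3.15, 4.06 and 3.403 with vehicle and 8.1996, 6.79 and 7.04 with MIZ. MIZ exceeded vehicle in all libraries (log2 fold change 1.04 ± 0.146) and overlapped the undifferentiated ones. Rab6a behaved otherwise, with 80.5, 85.3 and 78.4 CPM in undifferentiated cells against 113, 119 and 114 with vehicle and 116, 119 and 122 with MIZ. Both differentiated groups were higher than undifferentiated cells (log2 fold change 0.50 and 0.54). The difference between them missed the threshold (0.04 ± 0.0450, adjusted p = 0.432). Rab6a overlaps the opposite-strand gene Mrpl48 over 708 exonic bases, and Mrpl48 was at 19.7 to 21.6, 35.1 to 36.0 and 21.3 to 24.6 CPM in the 3 groups, whose part in the Rab6a count was not tested.

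Rab34, active in macropinocytosis and in cilium formation, was the largest fall of this group above 1 CPM. It rose from 70.6, 63.7 and 66.4 CPM to 108, 121 and 119.7 with vehicle and stood at 83.6, 76.2 and 78.3 with MIZ, between the other groups and apart from both (log2 fold change -0.55 against vehicle and 0.25 against undifferentiated cells). Rab1b followed the same course on a smaller scale, at 103 ± 4.50, 137 ± 1.46 and 122 ± 5.89 CPM (SD, n = 3) in undifferentiated, vehicle and MIZ cells, although its fall with MIZ was not called with library size alone (adjusted p = 0.532) or upper-quartile scaling (0.0639). The adipocyte marker sum ran in the group order of Rab34 and Rab1b, and its part in their values was not tested. Rab2a measured 108, 108 and 109 CPM in undifferentiated, 111, 106 and 105 in vehicle and 140.1, 137 and 142 in MIZ libraries. Its MIZ libraries exceeded all others (log2 fold change 0.38 and 0.37), while vehicle and undifferentiated libraries overlapped. Rab18, the lipid droplet Rab, was at 88.7 ± 1.44, 98.7 ± 2.45 and 110.0 ± 4.18 CPM in the same order, highest in MIZ libraries, where adipocyte markers were far below vehicle. Its small gain with vehicle over undifferentiated cells (0.16) turned to -0.02 and lost its call when library size alone was used. Of the rest, Rab1a, Rab2b and Rab43 were not called between MIZ and vehicle, with log2 fold changes of 0.08, 0.14 and -0.07. Rab2b and Rab43 share 76.4% and 90.5% of their transcript sequence with other annotated genes (Tox4 and Gm43766 for Rab2b, Gm45140 for Rab43). Among the counted genes, Tox4 shared 195 exonic bases with Rab2b on the opposite strand, and none shared exonic bases with Rab43. Any effect of the shared sequence on either count was not tested.

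Of the 7 early endosome and uptake Rabs 3 rose with MIZ against vehicle and 4 were not called, beside 35.9% of all genes higher and 35.1% lower. Rab31, which carries cargo between the trans-Golgi network and endosomes, measured 145, 143 and 144 CPM in undifferentiated, 31.4, 31.7 and 29.4 in vehicle and 89.2, 85.6 and 75.1 in MIZ libraries. The groups did not overlap, and the log2 fold change was 1.44 ± 0.0643 for MIZ against vehicle (adjusted p = 5.44e-09) and -2.22 ± 0.0650 for vehicle against undifferentiated cells. The summed macrophage markers and the summed preadipocyte and fibroblast markers given above both ran in the same order of groups. Several single markers of both lists did not, as given above. Their part in the Rab31 values was not tested. Rab21, an endosomal Rab of integrin traffic, went from 104, 104 and 104 CPM to 89.4, 86.9 and 87.2 with vehicle and 147, 160.05 and 154 with MIZ, so that all MIZ libraries lay above all others (log2 fold change 0.81 and 0.57).

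The Rab5 trio, which defines early endosomes, was not uniform. Rab5c stood at 182, 178 and 177 CPM in undifferentiated, 135, 122 and 129.5 in vehicle and 154, 142 and 139 in MIZ libraries. Its rise with MIZ was 0.17 ± 0.0529 (adjusted p = 0.0138) and was not called without vehicle replicate 2 (0.0843) or MIZ replicate 1 (0.0575). Rab5a was higher in both differentiated groups than in undifferentiated cells (0.30 and 0.37), whereas Rab5b, at 118 ± 4.18, 115 ± 4.41 and 114 ± 3.36 CPM in the same order, passed the threshold in no comparison. Rab22a, which sends endosomal cargo to the trans-Golgi network, fell against undifferentiated cells in both differentiated groups (log2 fold change -0.35 with vehicle and -0.43 with MIZ) but was not called between them. Rab20 rose against undifferentiated cells in both (0.42 and 0.27), calls that were lost under some alternatives.

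Recycling endosome Rabs split, with 3 of 7 tested members higher and 2 lower with MIZ than with vehicle, beside 35.9% and 35.1% of all genes. Rab15, which slows receptor recycling, had the second largest fall among all members above 1 CPM. It measured 2.27, 2.11 and 1.79 CPM in undifferentiated, 13.7, 15.1 and 13.2 in vehicle and 2.02, 2.23 and 2.66 in MIZ libraries, so that the vehicle libraries stood alone and the other groups overlapped. The log2 fold change was -2.61 ± 0.128 between MIZ and vehicle (adjusted p = 1.11e-08) and 0.16 ± 0.142 between MIZ and undifferentiated cells (adjusted p = 0.341).

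Rab11a and Rab11b, close paralogs that both drive slow recycling, moved in opposite directions. Rab11a was at 64.3, 69.5 and 66.0 CPM in undifferentiated, 65.0, 62.2 and 62.0 in vehicle and 94.2, 98.4 and 98.9 in MIZ libraries. It was higher with MIZ than in either other group (log2 fold change 0.62 ± 0.0456 against vehicle, adjusted p = 3.13e-07). Rab11b was at 104, 98.2 and 99.3 CPM in undifferentiated, 137, 133 and 132 in vehicle and 104, 94.5 and 95.9 in MIZ libraries. Its vehicle libraries alone were raised, and MIZ overlapped undifferentiated libraries (log2 fold change -0.45 ± 0.0476 against vehicle, adjusted p = 7.32e-06). Per kilobase of merged exon, Rab11a made up 55.95% to 59.2% of the pair in undifferentiated, 48.8% to 49.3% in vehicle and 65.0% to 68.1% in MIZ libraries. The size of these shares depends on the length used, for Rab11a 2992 bases against 2336 in its longest coding transcript. Gm17251, which overlaps Rab11b over 329 exonic bases on the other strand, was at 3.71 to 4.01, 12.0 to 12.5 and 4.35 to 5.27 CPM in the 3 groups, and its part in the Rab11b count was not tested. Rab4a and Rab4b, the Rabs of fast recycling, both rose with MIZ against vehicle (0.38 and 0.59) and fell with vehicle against undifferentiated cells (-0.48 and -0.71). Rab4b shares 78.4% of its transcript sequence with the annotated gene Gm21983. Among the counted genes none shared exonic bases with Rab4b, and any effect of the shared sequence on its count was not tested. Rab35, of endocytic recycling, was not called between MIZ and vehicle (-0.09).

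**Figure D2:**
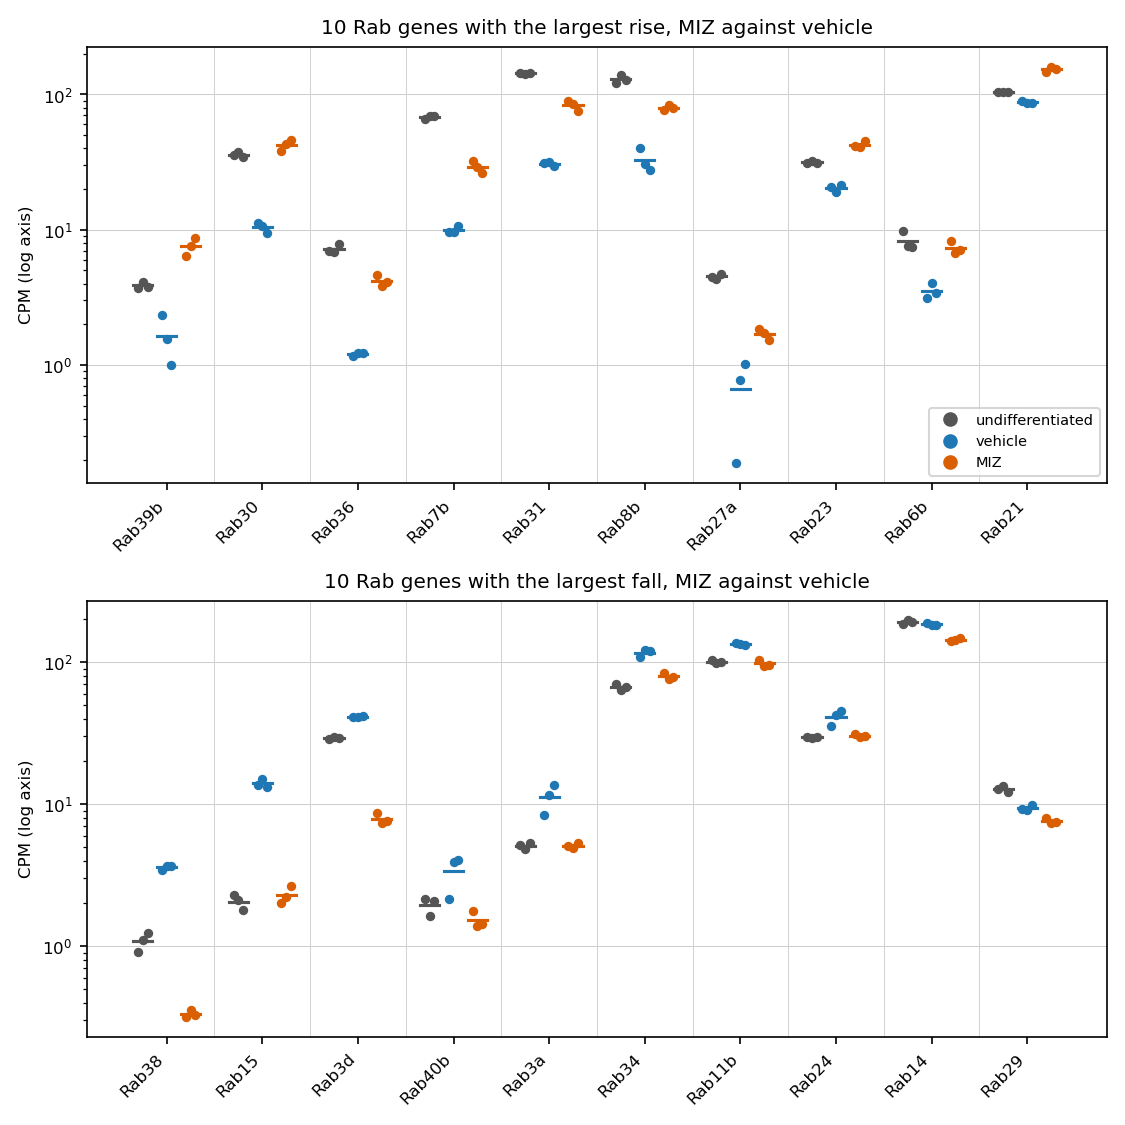
CPM of every library on a log axis for the 10 Rab genes with the largest called rise and the 10 with the largest called fall between MIZ and vehicle (among those averaging 1 CPM or more in some group), with points for libraries, bars for group means and colours for groups. In every one of the 20 genes the MIZ points lie apart from the vehicle points, and for Rab15, Rab3a, Rab24, Rab11b, Rab40b and Rab6b they overlap the undifferentiated points.

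In the late endosome, lysosome and autophagy group 2 of 5 tested members rose and 2 fell with MIZ against vehicle, beside 35.9% and 35.1% of all genes. Rab7b, a Rab of transport from late endosomes to the Golgi, was at 65.7, 69.5 and 69.0 CPM in undifferentiated, 9.60, 9.68 and 10.7 in vehicle and 32.2, 29.1 and 26.4 in MIZ libraries. The 3 groups were fully separated, by 1.55 ± 0.0781 between MIZ and vehicle (adjusted p = 1.43e-08) and -2.77 ± 0.0781 between vehicle and undifferentiated cells. As for Rab31, the order of the groups was that of the macrophage and of the preadipocyte and fibroblast sums, whose part was not tested. Rab7 measured 288, 288 and 284 CPM in undifferentiated, 266, 236 and 239 in vehicle and 284, 284 and 288 in MIZ libraries. Its vehicle libraries lay below all others, by a log2 fold change of 0.21 ± 0.0503 against MIZ (adjusted p = 0.00322).

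Rab24, linked to autophagy, was at 29.7, 29.0 and 29.8 CPM in undifferentiated, 35.6, 42.3 and 45.2 in vehicle and 31.2, 29.5 and 30.1 in MIZ libraries. Vehicle alone was raised (MIZ against vehicle -0.44 ± 0.0771, adjusted p = 3.60e-04). It shares 1258 exonic bases with Prelid1 on the opposite strand, which was at 151 to 152, 226 to 236 and 162 to 180.4 CPM, also highest with vehicle. Where counting ignored strand, reads from the shared bases of both genes cannot be told apart. Rab9, which returns mannose 6-phosphate receptors to the Golgi, fell from 40.7 ± 0.511 CPM to 24.95 ± 1.49 with vehicle and 21.9 ± 1.02 with MIZ. The last step of Rab9 was not called with upper-quartile scaling (adjusted p = 0.0757) or library size alone (0.446).

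All 3 Rabs of lysosome-related organelles were called in all 3 comparisons. Each comparison by itself called 67.0% to 77.7% of all genes, and the share of all genes called in every comparison was not determined. Rab38, which with Rab32 delivers pigment enzymes to melanosomes, had the largest fall of any member above 1 CPM. Its level was low, 0.909, 1.10 and 1.23 CPM in undifferentiated, 3.41, 3.67 and 3.67 in vehicle and 0.317, 0.353 and 0.325 in MIZ libraries. The counts behind these were 40, 49 and 72 in undifferentiated, 91, 171 and 165 in vehicle and 14, 13 and 11 in MIZ libraries. No groups overlapped, and the log2 fold change was -3.43 ± 0.182 between MIZ and vehicle (adjusted p = 2.17e-08) and -1.71 ± 0.201 between MIZ and undifferentiated cells. The melanocyte genes Tyr and Tyrp1 had no counts in any library, and the 6-gene melanocyte list, carried by Mitf, summed to 34.3 to 37.4, 32.0 to 33.0 and 22.3 to 26.7 CPM.

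Rab32 took the other direction, at 53.9, 59.5 and 52.8 CPM in undifferentiated, 33.1, 26.1 and 22.9 in vehicle and 39.1, 40.5 and 35.6 in MIZ libraries. The groups did not overlap, and the log2 fold change of MIZ against vehicle was 0.50 ± 0.114 (adjusted p = 0.00243). Its highest vehicle value came from replicate 1, the vehicle library with the highest macrophage marker sum (785 CPM against 436 and 488). Preadipocyte and fibroblast sums also ran in the group order of Rab32, though several single markers of both marker lists did not. Among vehicle libraries those sums were lowest in replicate 1 (3347 CPM against 3861 and 4202). The part of either marker list in Rab32 was not tested. Rab29, which recruits the kinase LRRK2 to membranes, fell stepwise from 12.9, 13.4 and 12.1 CPM to 9.19, 9.06 and 9.92 with vehicle and 7.93, 7.36 and 7.45 with MIZ, without overlap. The MIZ against vehicle call of Rab29 (-0.31 ± 0.0786, adjusted p = 0.00460) was lost with library size alone (0.0730).

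Regulated secretion held 1 rise and 3 falls among 8 tested members with MIZ against vehicle, beside 35.9% and 35.1% of all genes. Rab3d, a Rab of secretory granules that is found in adipocytes, measured 28.6, 29.8 and 29.4 CPM in undifferentiated, 41.0, 41.2 and 41.6 in vehicle and 8.70, 7.36 and 7.60 in MIZ libraries. With MIZ it was 5.22-fold below vehicle (log2 fold change -2.38 ± 0.0658, adjusted p = 1.49e-10) and also below undifferentiated cells (log2 fold change -1.89 ± 0.0654, adjusted p = 2.55e-09), with all 3 groups apart. Rab3a, the synaptic vesicle Rab, was at 5.11, 4.83 and 5.29 CPM in undifferentiated, 8.44, 11.6 and 13.6 in vehicle and 5.10, 4.89 and 5.29 in MIZ libraries. It was raised with vehicle, and MIZ and undifferentiated libraries overlapped (log2 fold change -1.15 ± 0.149 for MIZ against vehicle and 0.00 ± 0.153 against undifferentiated cells). The lowest vehicle value of Rab3a was replicate 1, and without it the fall with MIZ was -1.32. The opposite-strand neighbour Mpv17l2, which shares 29 exonic bases with Rab3a, was at 10.49 to 11.6, 19.1 to 21.6 and 9.46 to 10.2 CPM, and its part in the Rab3a count was not tested.

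Rab27a, which docks secretory lysosomes and exosome-releasing vesicles and is mutated in Griscelli syndrome, was at 4.48, 4.34 and 4.73 CPM in undifferentiated, 0.188, 0.773 and 1.02 in vehicle and 1.83, 1.74 and 1.54 in MIZ libraries. Vehicle replicate 1 held only 5 counts, against 36 and 46 in the other vehicle libraries. MIZ libraries lay above all vehicle libraries (log2 fold change 1.25 ± 0.326, adjusted p = 0.00516, and 0.92 without that library) and below all undifferentiated ones (-1.40 ± 0.264). The macrophage sums and the preadipocyte and fibroblast sums had the same order of groups, though several single markers of both lists did not. Rab27a was lowest in vehicle replicate 1, where among vehicle libraries the macrophage sum was highest and the preadipocyte and fibroblast sum lowest. The part of either sum in the Rab27a values was not tested. Rab44, under 1 CPM, had 5, 2 and 0 counts in undifferentiated, 12, 19 and 16 in vehicle and 1, 3 and 0 in MIZ libraries and was called lower with MIZ than with vehicle (adjusted p = 0.00186). Rab3b, also under 1 CPM, was called only in MIZ against undifferentiated cells, at 7, 9 and 9 against 21, 18 and 13 counts (adjusted p = 0.00288). Rab27b and Rab37, both under 1 CPM, fell in both differentiated groups against undifferentiated cells and were not called between MIZ and vehicle.

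For the exocytic Rabs that include those of GLUT4 traffic, 1 of 5 members rose and 2 fell with MIZ against vehicle. Of all genes 35.9% rose and 35.1% fell. Rab8b, a Rab of polarised exocytosis, measured 121, 138 and 128 CPM in undifferentiated, 39.98, 30.6 and 27.7 in vehicle and 77.01, 83.1 and 79.9 in MIZ libraries. The groups were apart, with log2 fold changes of 1.30 ± 0.112 for MIZ against vehicle (adjusted p = 1.25e-06) and -1.99 ± 0.112 for vehicle against undifferentiated cells, while its paralog Rab8a lay between 54.7 and 62.9 CPM in all 9 libraries and was called only in vehicle against undifferentiated cells (log2 fold change -0.16 ± 0.0445, adjusted p = 0.00676). Macrophage sums and preadipocyte and fibroblast sums ran in the order of Rab8b, though several single markers of both lists did not. The part of these sums in the Rab8b values was not tested. Rab10, the Rab of insulin-stimulated GLUT4 delivery, rose from 131, 135 and 129 CPM to 216, 205 and 198 with vehicle and stood at 171, 165 and 169 with MIZ. The MIZ libraries lay between the other groups, with a log2 fold change of -0.29 ± 0.0447 against vehicle (adjusted p = 1.41e-04) and 0.36 ± 0.0448 against undifferentiated cells. The adipocyte marker sum ran in the group order of Rab10, and its part in the Rab10 values was not tested. Rab14, an endosome-to-Golgi Rab also tied to GLUT4 sorting, was at 185, 197 and 192 CPM in undifferentiated, 189, 184 and 181 in vehicle and 139.7, 142 and 149 in MIZ libraries. MIZ lay below both other groups (log2 fold change -0.36 and -0.42). The vehicle and undifferentiated libraries of Rab14 overlapped. Rab13, of tight junction traffic, fell from undifferentiated cells in both groups (-0.59 and -0.34) and was not called between MIZ and vehicle.

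Rab23, a negative regulator of Hedgehog signaling at the cilium, was at 31.2, 32.2 and 30.9 CPM in undifferentiated, 20.9, 19.1 and 21.6 in vehicle and 41.6, 41.1 and 45.2 in MIZ libraries. MIZ was the highest group and vehicle the lowest, with no overlap (log2 fold change 1.06 ± 0.0613 against vehicle, adjusted p = 4.56e-08, and 0.44 ± 0.0594 against undifferentiated cells). Rab28, also ciliary, was called in no comparison.

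The Rab40 proteins carry a SOCS box and serve as subunits of cullin ubiquitin ligases. Rab40b was at 2.14, 1.64 and 2.08 CPM in undifferentiated, 2.14, 3.91 and 4.05 in vehicle and 1.77, 1.38 and 1.42 in MIZ libraries. Vehicle replicate 1 barely cleared the highest undifferentiated library, while every MIZ library was below every vehicle one (log2 fold change -1.16 ± 0.236, adjusted p = 0.00106). The more abundant Rab40c went the other way, at 26.0, 28.9 and 26.7 CPM in undifferentiated, 19.4, 20.6 and 21.3 in vehicle and 24.9, 23.6 and 22.1 in MIZ libraries. Its rise with MIZ over vehicle was 0.20 ± 0.0667 (adjusted p = 0.0183) and was not called without vehicle replicate 1, vehicle replicate 2 or MIZ replicate 1 (adjusted p 0.0538 to 0.0756). Per kilobase of merged exon, Rab40b made up 8.05% to 11.2% of the pair in undifferentiated, 14.5% to 22.6% in vehicle and 8.30% to 9.84% in MIZ libraries. The promoter windows of both are printed above, with 1 GC box and 4 CCAAT boxes in Rab40b against 4 and 2 in Rab40c.

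The third pair with opposite calls, Rab33a and Rab33b of the Golgi, was uneven in level. Rab33b was at 17.2, 19.0 and 18.5 CPM in undifferentiated, 14.6, 14.6 and 14.5 in vehicle and 19.9, 20.7 and 21.5 in MIZ libraries, highest with MIZ (log2 fold change 0.51 against vehicle). Rab33a was under 1 CPM with 11, 29 and 39 counts in vehicle and 6, 7 and 11 in MIZ libraries (log2 fold change -1.62, adjusted p = 0.00431).

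**Figure D3:**
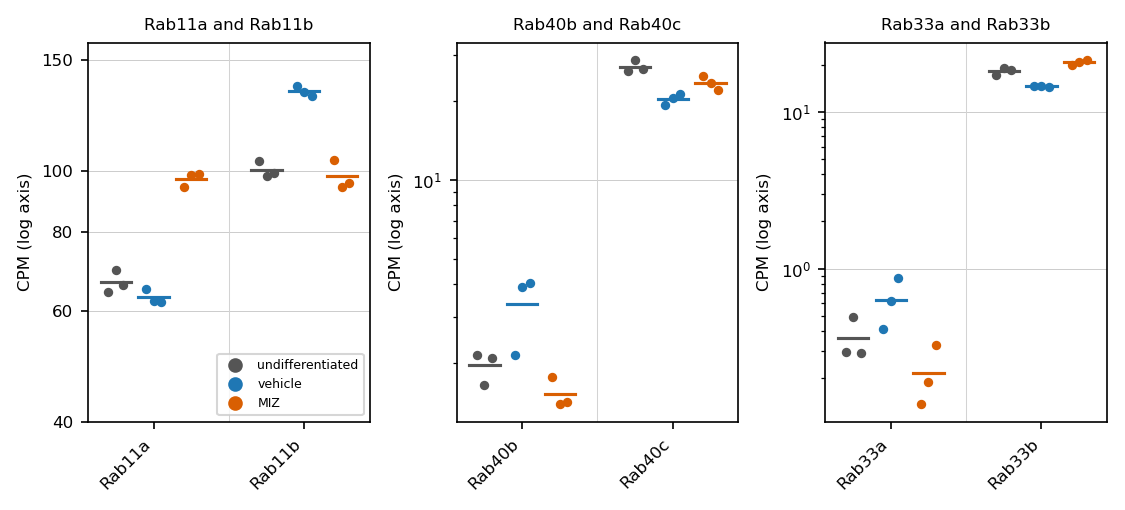
CPM of every library on log axes for the 3 pairs of Rab paralogs called in opposite directions between MIZ and vehicle, with points for libraries and bars for group means. MIZ is above vehicle for Rab11a, Rab40c and Rab33b and below it for Rab11b, Rab40b and Rab33a, and the Rab33a points all lie under 1 CPM.

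Vehicle against undifferentiated cells set the 6 days of differentiation beside undifferentiated cells. In this comparison differentiation cannot be told apart from the medium that drives it. Of the 56 tested members 47 were called, 16 higher and 31 lower, beside 77.7% of all genes tested (36.2% higher and 41.5% lower). The members' median log2 fold change was -0.23, beside -0.08 for all genes, and with library size alone these medians were -0.41 and -0.25. Over 2-fold changes numbered 4 upward and 14 downward, beside 17.2% and 24.0% of all genes, and 46 members did not overlap between the groups, beside 80.7%. The 5 largest rises above 1 CPM were Rab15 (2.77 ± 0.126), Rab38 (1.72 ± 0.146), Rab3a (1.15 ± 0.147), Rab40b (0.81 ± 0.224) and Rab34 (0.80 ± 0.0603), with adjusted p from 4.19e-09 to 0.00648.

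The largest fall was that of Rab19, for which no role is given here. Rab19 had 111, 134 and 185 counts in undifferentiated, 2, 1 and 2 in vehicle and 2, 0 and 2 in MIZ libraries. That is 2.52, 3.01 and 3.16 CPM in undifferentiated cells and at most 0.0750 CPM in the differentiated groups. It was called lower in both differentiated groups (adjusted p = 4.81e-08 and 1.17e-07), and at these counts no difference between MIZ and vehicle was detectable. Rab7b, Rab27a (-2.65 ± 0.296), Rab36 (-2.59 ± 0.122) and Rab31 were the next largest falls. Between the same groups 5 of 6 macrophage, 8 of 8 preadipocyte and fibroblast and 5 of 6 smooth muscle and pericyte markers fell, and their part in these falls was not tested.

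MIZ against undifferentiated cells called 37 members, 15 higher and 22 lower, beside 67.0% of all genes (33.7% higher and 33.3% lower). Their median was -0.10 on the log2 scale. The libraries of 39 members did not overlap, beside 74.4%. Only 1 member was over 2-fold higher, the weakly expressed Rab3b, and 8 were over 2-fold lower, beside 9.88% and 16.5% of all genes. The largest rises above 1 CPM were those of Rab39b, Rab21 (0.57 ± 0.0416), Rab11a (0.54 ± 0.0453), Rab6a (0.54 ± 0.0452) and Rab23. The largest falls were those of Rab19, Rab3d, Rab38, Rab27a and Rab7b (-1.22 ± 0.0716). The 3 comparisons share libraries, so their values are set side by side and not tested against each other.

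**Figure D4:**
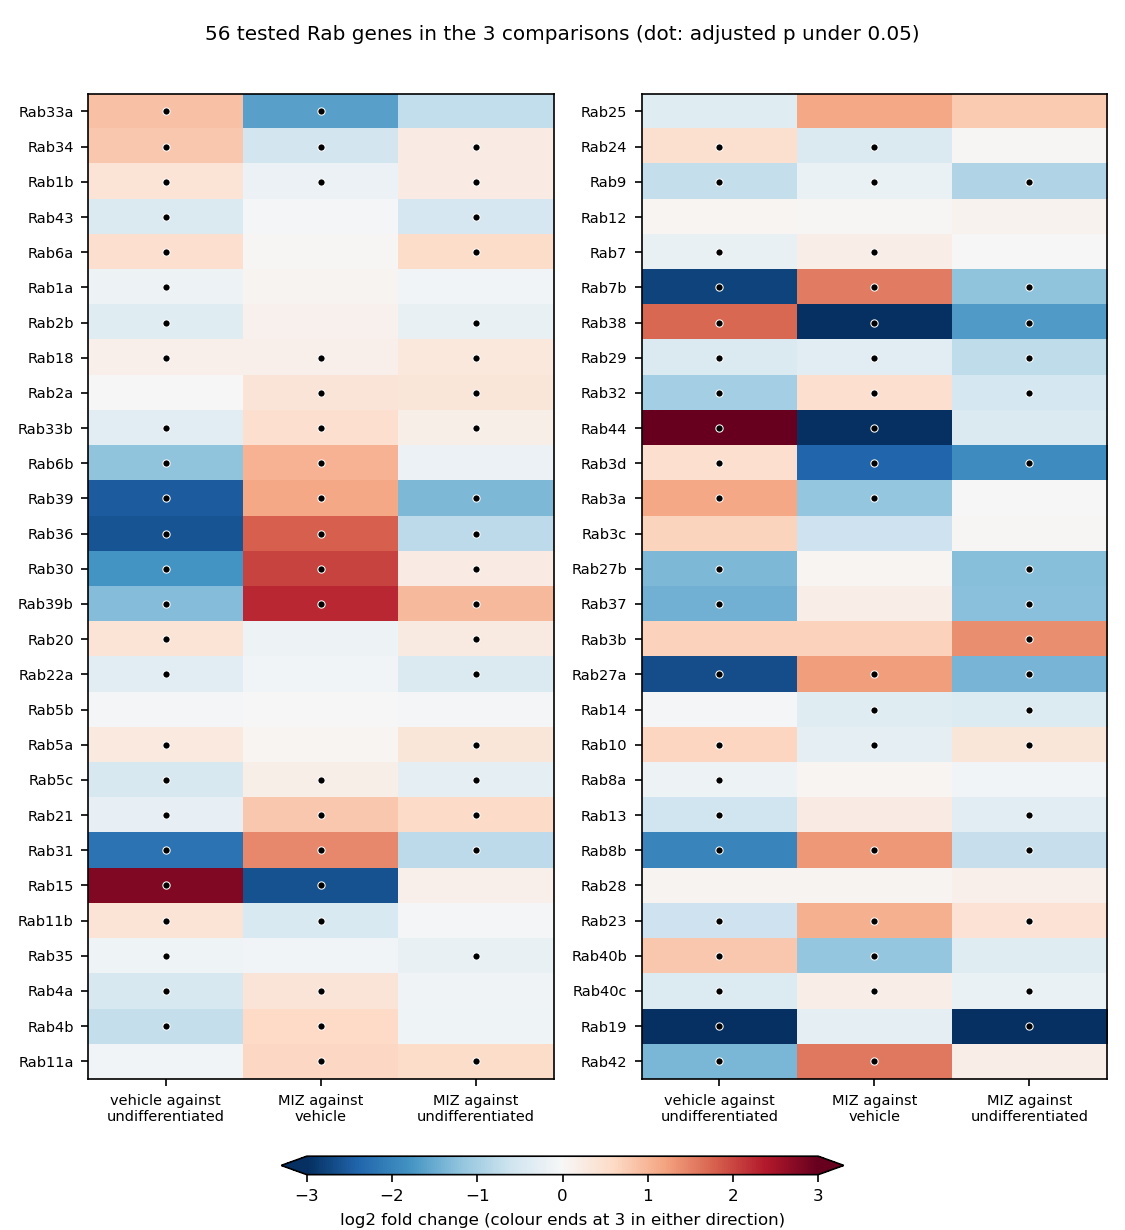
Log2 fold change of the 56 tested Rab genes in the 3 comparisons, in the order of the plot by role, red for higher and blue for lower in the first-named group, with dots where the adjusted p was under 0.05. Rab15, Rab38 and Rab3d are red for vehicle against undifferentiated and blue for MIZ against vehicle, Rab30, Rab36, Rab7b, Rab31 and Rab8b are the reverse, and Rab5b, Rab12, Rab28, Rab25 and Rab3c carry no dot.

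In all, 22 members were called in every comparison and 5 in none. The single comparisons called 67.0% to 77.7% of all genes, and the shares called in every comparison or in none were not determined for all genes. Uncalled in all comparisons were Rab5b, Rab12 and Rab28, at 23.6 to 122 CPM with log2 fold changes from -0.05 to 0.16, and the weakly expressed Rab25 and Rab3c, at 0.0512 to 0.563 CPM with changes from -0.62 to 1.16, and all of these but Rab3c were called in some comparison under some alternative. Rab9b, Rab17 and Rab26 had 15, 3 and 27 counts over all libraries and were not tested. Rab42 and Rab39, both under 1 CPM, were called higher with MIZ than with vehicle, Rab42 from counts of 2, 13 and 12 against 39, 17 and 23 (adjusted p = 0.00492) and Rab39 from 3, 7 and 4 against 11, 15 and 5 (adjusted p = 0.0461). The Rab39 call was lost under 11 alternatives.

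The other genes of the Rab cycle were taken from a list of 125, of which 123 were tested. Between MIZ and vehicle 43 rose and 46 fell, with a median log2 fold change of 0.00, close to the background of 71.0% called, and with library size alone 58 rose and 36 fell. Against undifferentiated cells 37 rose and 62 fell with vehicle, and 35 rose and 58 fell with MIZ, beside 36.2% of all genes higher and 41.5% lower with vehicle and 33.7% and 33.3% with MIZ.

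Of the 7 genes for prenylation and GDI, Chm, a Rab escort protein, rose with MIZ against vehicle (0.53 ± 0.0593), and Rabggta, the alpha subunit of Rab geranylgeranyl transferase, fell (-0.33 ± 0.0658), as did Gdi2 (-0.11 ± 0.0404). Among 32 GEFs 10 rose and 14 fell, beside 35.9% and 35.1% of all genes. Rin1, a GEF for Rab5, stood at 70.3 ± 6.38 CPM (SD, n = 3) with MIZ against 20.002 ± 4.55 with vehicle and 18.8 ± 0.485 in undifferentiated cells. Rab3il1, a GEF for Rab8, was at 11.8 ± 2.09 with MIZ and 4.71 ± 0.677 with vehicle, both far under the 142 ± 5.77 CPM of undifferentiated cells. Dennd2c rose (1.96), while Dennd2d (-1.45), Dennd5b (-1.17) and Madd, a GEF for Rab3 and Rab27 (-0.98), fell.

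Among 32 GAPs 11 rose and 11 fell with MIZ against vehicle, beside 35.9% and 35.1% of all genes. Tbc1d4 (AS160), the insulin-regulated GAP for Rab10, was at 12.7 ± 1.96 CPM with MIZ, 118 ± 15.05 with vehicle and 36.5 ± 3.57 in undifferentiated cells, lowest with MIZ (log2 fold change -3.23 ± 0.127 against vehicle, adjusted p = 1.97e-09). Tbc1d20, a GAP for Rab1, fell (-1.34 ± 0.0507), and Tbc1d8 fell (-1.06). Tbc1d2, a GAP for Rab7, and its relative Tbc1d2b rose (2.02 ± 0.0961 and 1.78 ± 0.0551), as did Sgsm1 (1.11).

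The 40 tested effectors gave 17 rises and 15 falls with MIZ against vehicle, beside 35.9% and 35.1% of all genes. Rab27 effectors were among the largest called changes in both directions, and the other Rab27 effectors of the list are not described here. Sytl2 was at 16.8 ± 2.98 CPM with MIZ against 1.95 ± 0.170 with vehicle, and Sytl5 at 2.76 ± 0.516 against 0.275 ± 0.0529, both higher. Myrip, which ties Rab27a to myosin motors, was at 0.110 ± 0.0426 against 3.88 ± 0.214 CPM and Rph3al at 0.175 ± 0.0838 against 1.26 ± 0.410, both lower. Micall2, an effector of Rab13 and Rab8, rose (2.29 ± 0.0670), and Rilp, which links Rab7 to dynein, fell (-2.05 ± 0.144). Rph3a, a Rab3 effector, had the largest fitted rise of the list but stayed under 1 CPM in each group, at 0.938 ± 0.361 with MIZ and 0.0125 ± 0.0217 with vehicle. Both kinases in the list that phosphorylate Rab proteins rose with MIZ against vehicle, Lrrk1 to 92.6 ± 2.15 from 18.8 ± 3.06 CPM and Lrrk2 to 77.7 ± 4.70 from 44.5 ± 3.81, while the Rab phosphatase Ppm1h was not called.

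The GLUT4 vesicle genes, 9 in all, gave 2 rises and 4 falls with MIZ against vehicle, beside 35.9% and 35.1% of all genes. Slc2a4, which encodes GLUT4, was at 9.02 ± 1.36 CPM with MIZ, 205 ± 9.97 with vehicle and 0.170 ± 0.0330 in undifferentiated cells (log2 fold change -4.51 ± 0.0968, adjusted p = 3.41e-11), beside -0.29 for Rab10. Sort1, the GLUT4 vesicle sorting receptor, fell too (-2.40 ± 0.0933), and so did the fusion protein Stx4a (-0.51 ± 0.0826). Its binding partner Stxbp3 and the vesicle cargo Lrp1 rose (0.52 ± 0.0661 and 0.63 ± 0.0796). The adipocyte marker sum ran in the same order of groups as Slc2a4, and its part in these differences was not tested.

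**Figure D5:**
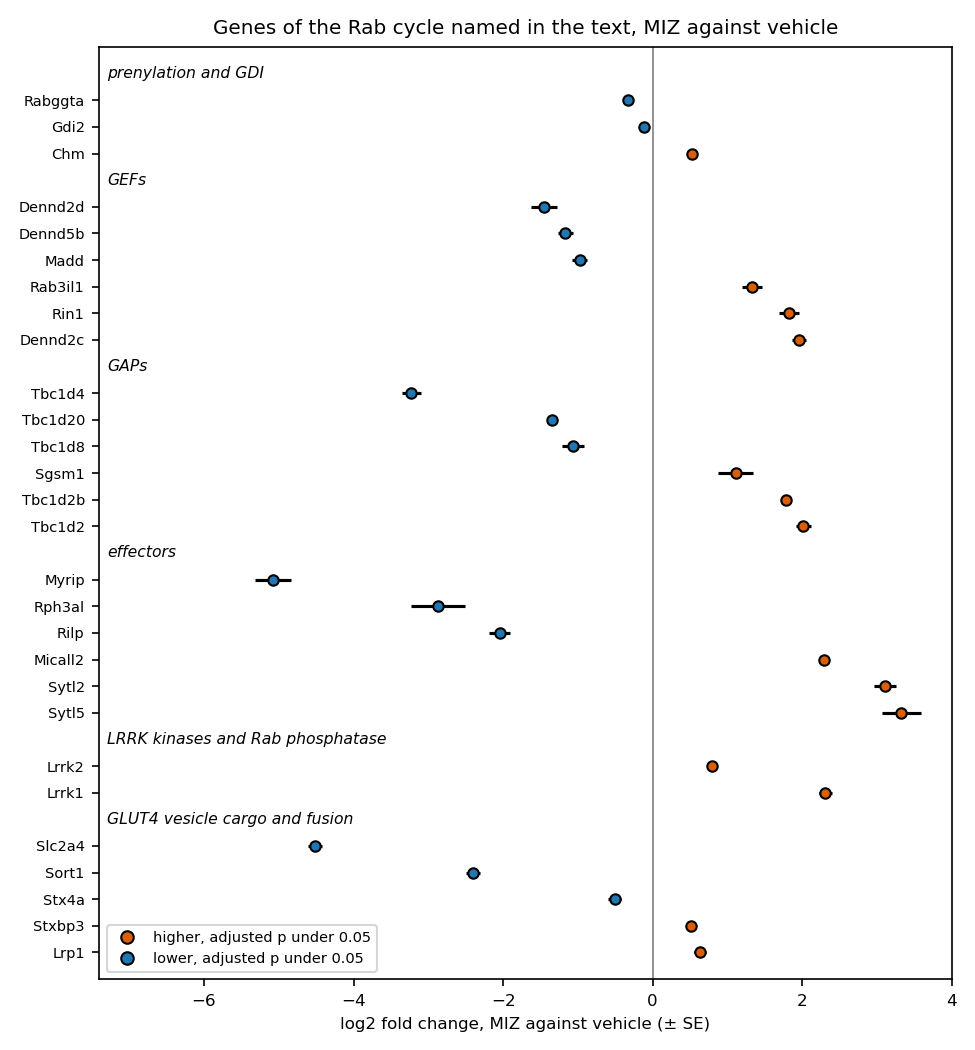
Log2 fold change between MIZ and vehicle, with the standard error as bars, of the up to 3 largest called rises and falls in each list of Rab cycle genes, among genes averaging 1 CPM or more in some group. Blue points (lower with MIZ) reach -5.07 for Myrip and -4.51 for Slc2a4, and orange points (higher) reach 3.33 for Sytl5.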

How the data were processed

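Bulk RNAseq counts of 9 libraries were analysed, 3 per group as labelled. The authors deposited 1 raw count table per library, whole numbers of reads per gene, made from paired-end reads. Per the labels the libraries were rRNA-depleted total RNA, while the study's methods also mention poly-A selection. The submitters' processing notes name Trim Galore 0.6.7, STAR and HTSeq and the mouse build mm10, and the strand setting of the counting is not given in the sources used here. A gene was tested where 3 or more libraries held 5 or more of its counts (17173 of 32285).

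All 9 libraries were fitted together with edgeR 4.0.16 (TMM, glmQLFit and glmQLFTest, R 4.3.3), with Benjamini-Hochberg adjustment over all genes tested and a threshold of 0.05. An adjusted p in the text is from that test unless named otherwise, SE is the absolute log2 fold change divided by the square root of F, and CPM use TMM factors. DESeq2 1.42.0, other scalings and filters, a replicate block and leaving out each library were alternatives. Replicates were plated from individual animals per the study's methods. The code was tested on simulated data.

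Library values are given for the 10 largest rises and the 10 largest falls called in MIZ against vehicle, with 5 of each in the other comparisons, among members averaging at least 1 CPM in a group, for paralogs called in opposite directions and for the 5 members with the highest group level per length. Other members were named to account for the family after their values were seen. The members, roles and lists were chosen with earlier results of these data known. Gene coordinates, exon lengths and overlaps are from GENCODE M21 (GRCm38), and transcripts were compared with blastn 2.17.0 (at least 150 bases at 97% identity). Promoter windows were found for 48 of 59 members.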

Additional observations from a re-analysis of the deposited data

How the results depend on the processing

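Under the alternatives tried, 31 of 37 Rab calls in MIZ against vehicle, 41 of 47 in vehicle against undifferentiated and 31 of 37 in MIZ against undifferentiated cells were kept wherever the gene was tested (a stricter filter left members under 1 CPM untested). No gene was called in the opposite direction, and the value of 1 called gene changed sign, Rab18 in vehicle against undifferentiated cells (-0.02 with library size alone, not called). Leaving out 1 library at a time gave 34 to 38, 45 to 47 and 32 to 39 called members in the same order, and the other alternatives gave 34 to 44, 41 to 49 and 34 to 39. For the Rab cycle genes these ranges were 85 to 97, 94 to 102 and 87 to 96, and 84 to 94, 95 to 107 and 90 to 96. The calls lost under some setting were Rab1b, Rab5c, Rab9, Rab29, Rab39 and Rab40c in MIZ against vehicle, Rab1a, Rab18, Rab20, Rab27b, Rab33a and Rab35 in vehicle against undifferentiated, and Rab13, Rab20, Rab27b, Rab30, Rab33b and Rab40c in MIZ against undifferentiated cells, and the cause was not tested. Calls were also gained under some setting by 14, 6 and 5 uncalled members, in MIZ against vehicle by Rab1a, Rab2b, Rab3b, Rab5a, Rab5b, Rab6a, Rab8a, Rab12, Rab13, Rab20, Rab22a, Rab25, Rab28 and Rab35. The summed Rab level moved by more than the replicate SD with library size alone in all groups and with median-ratio factors in undifferentiated and vehicle cells.

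The labels number replicates 1 to 3 in each group, but deviations of same-numbered libraries correlated at -0.0447 to 0.063 over 9 pairs, none over 0.1, so the numbers were not taken as pairs. With the replicate block 36, 46 and 38 Rab genes and 86, 98 and 94 Rab cycle genes were called, with Rab39 (adjusted p = 0.0523 in edgeR) and Rab33a (0.0505) lost. Members under 1 CPM rest on few counts, which limits what could be detected for them.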
